A study of Caenorhabditis elegans with 2 samples.

Results

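The proteasome subunit genes are described here in a map of where the protein of Y55F3AM.14 associates with the genome of Caenorhabditis elegans L2 larvae. Members were the protein-coding genes of RefSeq WBcel235 whose symbol starts with pas-, pbs-, rpn- or rpt- followed by a digit. They numbered 33 of 19971 protein-coding genes: 14 of the core particle, in an alpha ring of 7 (pas) and a beta ring of 7 (pbs), and 19 of the regulatory particle. The latter comprised 6 ATPases of the base (rpt), 4 other base subunits (rpn-1, rpn-2, rpn-10 and rpn-13) and 9 genes for subunits of the lid (the other rpn genes, with rpn-6.1 and rpn-6.2 as separate genes). None lay on the X chromosome. The rule for members used symbols only and no measured value, but it was set with earlier results of these data known.

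Chromatin immunoprecipitation with an anti-GFP antibody and sequencing (ChIP-seq) was done on 1 group of 2 samples, biological replicates 1 and 2 of strain OP608. The strain had the allele unc-119(tm4063) and the integrated transgene wgIs608, which holds Y55F3AM.14 fused to TY, EGFP and 3xFLAG tags together with unc-119(+). Animals of pooled sexes were starved as L1 larvae after bleaching and taken at 42 hours. RefSeq names the tagged gene znf-782 and describes its product as a C2H2-type domain-containing protein. Whole animals were used, so cell types cannot be told apart, and the bound protein was the tagged one of the transgene. No group lacked the transgene, so no contrast between conditions could be made.

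The proteasome degrades proteins marked with ubiquitin in the cytosol and nucleus of all eukaryotic cells. Its barrel-shaped core particle holds the proteolytic sites on the inner face of the beta rings, behind gates formed by the alpha rings. The regulatory particle caps the barrel: its ubiquitin receptors capture substrates, its lid removes the ubiquitin, and its ring of ATPases unfolds and threads the chain. Subunits are needed in fixed proportions, and in Caenorhabditis elegans the transcription factor SKN-1A raises the transcription of proteasome genes when proteasome function is impaired.

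A region of the deposited lists was assigned to a gene when its summit, the base the authors' caller marked as its centre, lay within 500 bp of an annotated transcript start. The optimal list, of 1604 regions that passed the authors' reproducibility threshold, placed a region at 3 of the 33 members (9.09%, exact 95% interval 1.92 to 24.3): rpn-11, rpn-3 and pbs-1. Over all protein-coding genes the share was 3.42%. The pooled relaxed list of 29629 regions, which holds background as well as peaks, placed a region at 15 members (45.5%, 28.1 to 63.6), against 33.1% of all genes. Of the optimal regions at members, 2 belonged to lid genes and 1 to a beta ring gene, and the alpha ring and the base had none. Both intervals include the share over all genes, and no enrichment test was run.

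The sequences under the summits of the optimal regions at members are shown first, because these regions carry the highest scores. Each is the 151 bases centred on the pooled summit, from RefSeq WBcel235, on the strand of the gene. Capitals mark exact matches on either strand to GAGAGA or GACGC, letters taken from an earlier description of these data. They also mark GTCAT, part of the sequence that SKN-1 is known to bind, which was added after these sequences had been seen. GACGC and GTCAT can share bases. The first 3 come from optimal regions. The last pair come from weaker intergenic regions with a summit in both replicates, and they are not the next in score. Regions of pbs-7, pbs-3, rpn-5, rpt-2, pas-5 and pbs-5 also score above that of rpn-9, and their windows are not printed.
rpn-11, II:4044465-4044615, minus strand: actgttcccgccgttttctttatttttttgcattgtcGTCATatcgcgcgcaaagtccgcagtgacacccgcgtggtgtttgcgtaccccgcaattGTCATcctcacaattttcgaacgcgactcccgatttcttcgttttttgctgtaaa
rpn-3, III:8447089-8447239, plus strand: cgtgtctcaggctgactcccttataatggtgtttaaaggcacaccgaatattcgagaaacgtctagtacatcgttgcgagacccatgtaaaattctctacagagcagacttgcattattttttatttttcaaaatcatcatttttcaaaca
pbs-1, IV:1709861-1710011, minus strand: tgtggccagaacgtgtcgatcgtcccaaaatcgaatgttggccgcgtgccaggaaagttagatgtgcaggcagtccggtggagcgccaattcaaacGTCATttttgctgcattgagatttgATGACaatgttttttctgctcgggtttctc
rpt-1, V:11982494-11982644, minus strand: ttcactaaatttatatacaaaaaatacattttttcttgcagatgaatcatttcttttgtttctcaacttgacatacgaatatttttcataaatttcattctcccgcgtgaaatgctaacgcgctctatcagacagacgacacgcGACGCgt
rpn-9, II:11239119-11239269, minus strand: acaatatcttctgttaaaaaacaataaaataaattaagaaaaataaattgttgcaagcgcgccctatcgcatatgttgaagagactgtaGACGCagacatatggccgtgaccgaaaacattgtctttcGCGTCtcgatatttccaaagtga

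None of the optimal windows at members held GAGAGA or GACGC, which occurred in 34.5% and 31.4% of the 151-base windows of all 1604 optimal regions. The windows of rpn-11 and pbs-1 each held GTCAT at 2 places and that of rpn-3 held none, and 19.9% of all optimal windows had at least 1. The rpt-1 window held GACGC once and the rpn-9 window held it at 2 places, while the intergenic windows of pbs-7 and of the higher-scoring pas-5 region, also seen in both replicates, held none. Over all 20 pooled windows at members, GACGC stood in 5 (25%), GAGAGA in 2 (10%) and GTCAT in 7 (35%), against 14.7%, 13.9% and 21.8% of all 29629 pooled windows. Each of the 20 member windows occurred once in the genome. The G and C content of the optimal windows was 47.7% at rpn-11, 49.0% at pbs-1 and 37.1% at rpn-3, beside a median of 47.7% over all optimal windows. A match is a description of letters and not a binding site.

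Among the 33 promoters, taken as the 300 bases from 250 before to 50 after the most upstream start, GTCAT stood in 19 (57.6%), against 39.6% of all 19971 promoters. It was present in 9 of 14 core and 10 of 19 regulatory particle promoters. GACGC stood in 7 of 33 (21.2%, against 19.3% of all promoters) and GAGAGA in 5 (15.2%, against 21.7%). The members' median G and C content was 34.3%, the same as over all promoters. These shares were not tested, and GTCAT was picked after windows of members had been read.

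**Figure D1:**
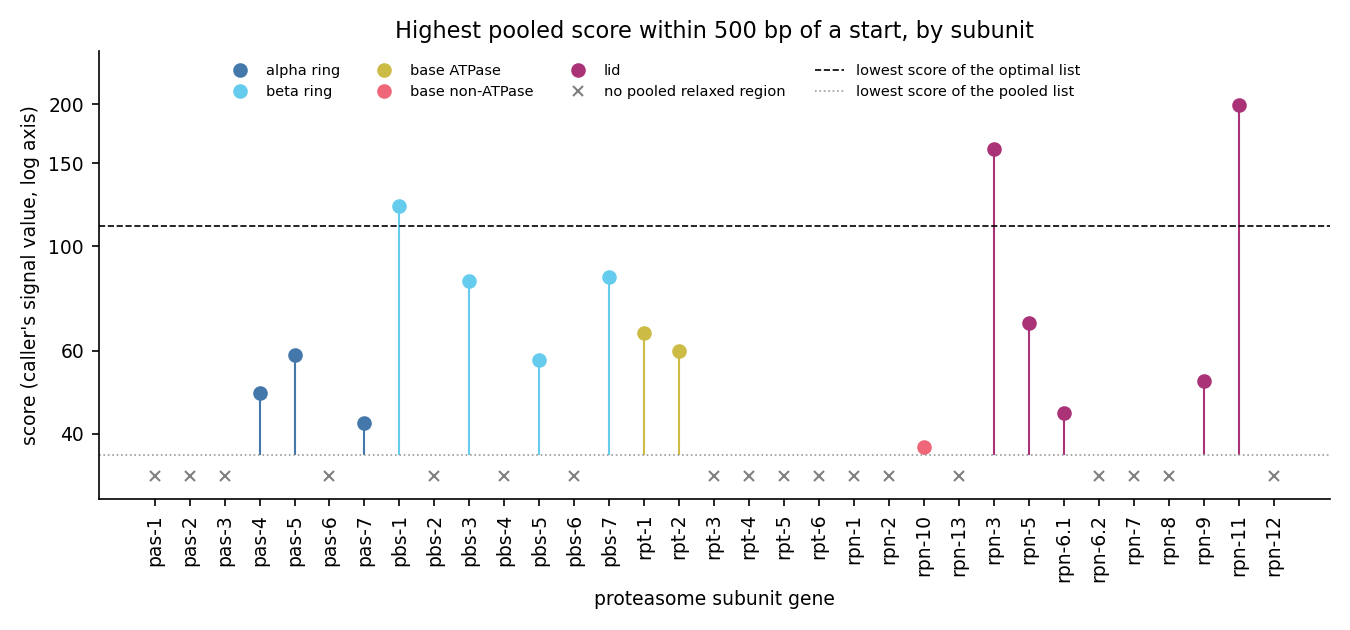
Highest score of a pooled relaxed region within 500 bp of a start for each of the 33 genes (vertical log axis, signal value of the authors' caller), coloured by role. Circles stand above the lowest pooled score of 36.1, crosses mark the 18 genes without such a region, and 3 genes, rpn-11, rpn-3 and pbs-1, lie above the dashed line at 110.3, the lowest score of the optimal list.

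The 2 highest-scoring members were lid genes, although among genes with a pooled region the median of the highest score was 85.3 in the beta ring and 68.6 in the lid. The strongest region at any member lay upstream of rpn-11, whose product is the metalloprotease that cuts ubiquitin from substrates as they enter the proteasome. Its pooled score, the signal value of the authors' caller, was 199.2, with 109.2 from replicate 1 and 86.6 from replicate 2. It ranked 421 of 1604 in the optimal list, 440 in the replicate 1 list and 498 in the replicate 2 list. The region (II:4044328-4044751) was intergenic, with its summit 210 bp upstream of the start, and no other gene had a start within 500 bp. The caller's q value, as −log10, was 2.45 here, 2.29 at rpn-3 and 1.82 at pbs-1. At every other pooled region of a member it was lower, from 0.831 at pbs-7 down to 0.0228 at rpn-10.

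The region of rpn-3, which encodes a scaffold subunit of the lid, had a pooled score of 160.9, with 91.1 from replicate 1 and 72.0 from replicate 2. It ranked 676 of 1604 in the optimal list and 672 and 792 in the replicates. It lay at III:8446952-8447375 between divergent genes, with its summit 189 bp upstream of rpn-3 and 255 bp from the start of hsp-110, a gene for a large heat shock protein. A non-coding RNA gene, C30C11.14, started 69 bp away. Which of these genes the region serves cannot be told from its position. Replicate 2 also had a weak region (score 24.8) whose summit fell in coding sequence of rpn-3, 376 bp inside the gene, and replicate 1 had none there.

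Other lid genes had weaker regions. rpn-5, which encodes a PCI domain subunit, had a pooled score of 68.6 with replicate scores of 32.2 and 34.3, and the summit lay in its own coding sequence, 208 bp downstream of the start. rpn-9, another PCI domain subunit, scored 51.8 (28.5 and 21.2) at 275 bp upstream. For both, the summits of the replicates lay within 12 bp of each other. rpn-6.1, a lid gene whose raised expression is known to protect worms against proteotoxic stress, had a pair of weak pooled regions, 44.1 at 377 bp upstream and 43.8 at 401 bp downstream. Neither had a replicate summit within 100 bp, although replicate 1 had a region of 36.1 at 266 bp downstream and replicate 2 one of 22.3 in an intron. The upstream pooled one fell in coding sequence of the divergent gene F57B9.1, 38 bp from that gene's start. The related rpn-6.2 had a region in replicate 1 only (25.5). rpn-7, rpn-8 and rpn-12 had no region in any of the 4 lists.

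In the beta ring, which carries the proteolytic sites, 4 of 7 genes had a pooled region (57.1%, exact interval 18.4 to 90.1), against 33.1% of all genes. The same 4 of 7 (57.1%, 18.4 to 90.1) had a summit in both replicates within 100 bp of a pooled one. Over all genes, with or without a pooled region, that share was 14.8%. The differences from all genes were not tested. pbs-1, by homology the caspase-like subunit, had the third optimal region (IV:1709724-1710147), with a pooled score of 121.5 and nearly equal scores of 60.8 and 61.1 from replicates 1 and 2. The summit was 191 bp upstream of pbs-1 and 329 bp from the divergent K08D12.3, a gene for a CCHC-type domain protein. The region stood near the end of the optimal list, at rank 1293 of 1604. Its rank was 1168 in replicate 2 and 1799 in replicate 1, so it would be missed among the 1604 highest-scoring regions of replicate 1. Replicate 2 held a further region in pbs-1 coding sequence (36.4), which replicate 1 did not have.

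The next scores below the optimal list also came from the beta ring. pbs-7 scored 86.2 in the pooled list, but its replicates differed: 27.1 (rank 18914) in replicate 1 and 46.5 (rank 2400) in replicate 2, with summits 83 bp apart. The pooled summit was 154 bp upstream of pbs-7 and 148 bp from the divergent gene F39H11.1, so the nearest coding start was not that of the member. pbs-3 scored 84.4 (42.1 and 31.1) at 160 bp downstream, in its own coding sequence. It had a second region of 56.2 at 43 bp upstream, in the untranslated end of the neighbouring ulp-2. That second region had a score of 41.1 in replicate 1 and no replicate 2 summit within 100 bp. pbs-5, by homology the chymotrypsin-like subunit, scored 57.3 (31.0 and 25.1) at 223 bp downstream, in coding sequence. pbs-4 had a region in replicate 1 only (22.4). pbs-2, by homology the trypsin-like subunit, and pbs-6 had none in any list.

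The alpha ring had no optimal region (0 of 7, exact interval 0 to 41.0%), against 3.42% of all genes. pas-5 scored 58.6 at 6 bp upstream, with 25.3 in replicate 1 (rank 22049) and 35.5 in replicate 2 (rank 5342). It had another weak region of 41.9 at 294 bp upstream, with no summit of either replicate within 100 bp. pas-4 scored 48.9 at 70 bp upstream, beside the divergent RNA polymerase II subunit gene rpb-3. Replicate 1 shared that position (31.5) and replicate 2 had no summit within 100 bp of it. Replicate 2 had a region of 20.5 in an intron of pas-4, 129 bp downstream. pas-7 scored 42.0 at 289 bp downstream, a position that replicate 2 shared and replicate 1 lacked. pas-1 (29.7) and pas-2 (24.2) had a region in replicate 1 only, and pas-3 and pas-6 had none. Thus 1 of 7 alpha ring genes, pas-5, had a pooled region with a summit in both replicates (14.3%, exact interval 0.361 to 57.9). The share over all genes was nearly the same, 14.8%.

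In the base, the ATPase genes rpt-1 and rpt-2 had regions. rpt-1 scored 65.3 (29.1 in replicate 1 and 32.7 in replicate 2) at 172 bp upstream, in intergenic sequence. Its second region, at 411 bp upstream, had a score of 37.6, close to the lowest of the list. That region had a score of 20.4 in replicate 2 and no replicate 1 summit within 100 bp. rpt-2 scored 59.9 in coding sequence at 134 bp downstream and 47.6 at 105 bp upstream, where the summit fell in the non-coding gene F29G9.10 and 196 bp from the divergent aps-1. The downstream region of rpt-2 had a score of 33.4 in replicate 1 and no replicate 2 summit within 100 bp. The nearest replicate 2 summit was 105 bp from it, and replicate 2 had a region of 18.5 in rpt-2 coding sequence, 239 bp downstream. The upstream region had replicate scores of 27.5 and 19.0. rpt-5 had a region in replicate 2 only (19.8), and rpt-3, rpt-4 and rpt-6 had none. Of the other base genes, rpn-10, for a ubiquitin receptor, had the weakest region of the members (37.5, in coding sequence of the neighbouring mrpl-9). Replicate 2 had a summit within 100 bp of it (21.6) and replicate 1 had none there. Replicate 1 had a region elsewhere (23.6), in coding sequence of rpn-10 at 144 bp downstream. The scaffold genes rpn-1 and rpn-2 and the ubiquitin receptor gene rpn-13 had none in any list.

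By particle, 1 of 14 core genes (7.14%, exact interval 0.181 to 33.9) and 2 of 19 regulatory genes (10.5%, 1.30 to 33.1) had an optimal region, against 3.42% of all genes. A pooled relaxed region was present at 7 of 14 core genes (50%, 23 to 77) and 8 of 19 regulatory genes (42.1%, 20.3 to 66.5), against 33.1% of all genes. The intervals of the particles overlap in both lists, and the difference between the particles was not tested. For pooled regions the order reversed with a window of 1000 bp (8 core and 12 regulatory genes, against 48.4% of all genes). With any overlap of region and window the shares were nearly equal (8 of 14 and 11 of 19, against 40.2%). Among genes with a pooled region, the median of the highest score was 59.9 over the 15 members and 53.8 over 6607 genes.

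Replicate 1 alone placed a relaxed region at 18 members (54.5%, 36.4 to 71.9), an interval that lay above the 32.9% of all genes. Replicate 2 alone placed one at 16 members (48.5%, 30.8 to 66.5), against 32.2%. A region in any of the 4 lists was present at 20 members (60.6%, 42.1 to 77.1), against 45.8% of all genes. A pooled region with a summit of each replicate within 100 bp was present at 11 members (33.3%, 18.0 to 51.8), against 14.8% of all genes: rpn-11, rpn-3, rpn-5, rpn-9, pbs-1, pbs-3, pbs-5, pbs-7, rpt-1, rpt-2 and pas-5. The pooled list was made from both replicates, so this last count is not independent of them. Genes are not replicates, and the difference from all genes was not tested.

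**Figure D2:**
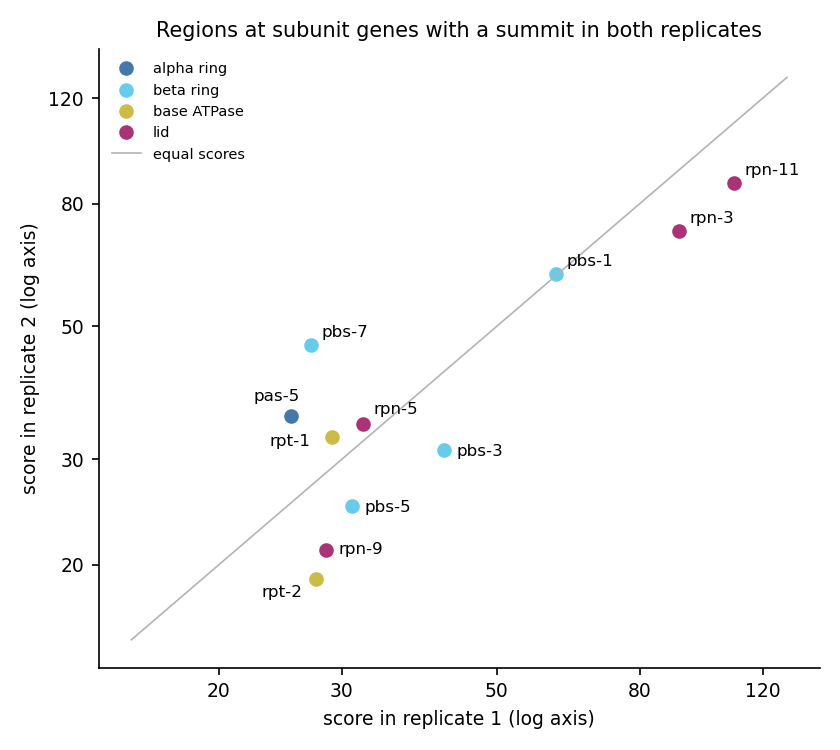
Scores in replicate 1 and replicate 2 (log axes, signal value of the caller) of the 11 regions at members with a summit of both replicates within 100 bp, coloured by role, with the line of equal scores. The optimal regions, at pbs-1, rpn-3 and rpn-11, lie apart at the upper right, and pbs-7 and pas-5 lie farthest above the line.

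Replicate 1 gave the higher score at 6 of these 11 regions. The ratio of the replicate 1 to the replicate 2 score was 1.26 at rpn-11, 1.26 at rpn-3 and 0.996 at pbs-1, beside a median of 1.20 and quartiles of 0.996 and 1.47 over 1517 optimal regions. It was lowest at pbs-7 (0.584) and pas-5 (0.714) and highest at rpt-2 (1.45). The pooled score was close to the sum of the replicate scores, with a median ratio of 1.00 over the 1517 regions. At rpn-11 the sum was 195.8, and at pbs-7 it was 73.6, below its pooled score of 86.2. The number of reads behind each list is unknown, so the scores are not scaled to depth and a difference between replicates was not tested.

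**Figure D3:**
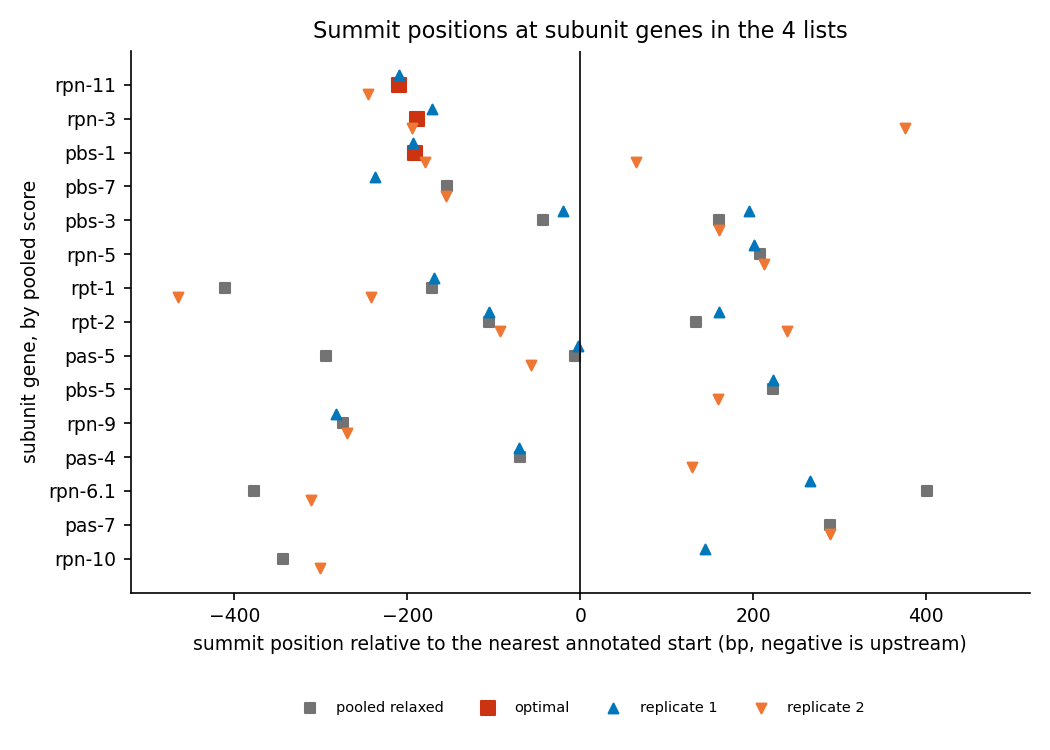
Summit positions relative to the nearest annotated start (horizontal axis, bp, negative is upstream) for the 15 genes with a pooled relaxed region, ordered by pooled score, in the pooled, optimal and replicate lists. The 3 optimal summits lie between 210 and 189 bp upstream, while weaker summits fall on both sides of the start.

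The optimal summits at members lay in a narrow range, 210 bp upstream of rpn-11, 191 bp upstream of pbs-1 and 189 bp upstream of rpn-3, all in intergenic sequence. Over the 684 genes with an optimal region, the median position was -187 bp with quartiles of -302 and -69.8 bp, and 85.7% were upstream. The highest-scoring pooled summit was upstream at 10 of 15 members (66.7%), with a median of -154 bp, against 54.6% and -36 bp over 6607 genes. Of the 20 pooled regions at members, 10 had an intergenic summit, 7 lay in a coding exon, and 1 each lay in an intron, an untranslated exon and a non-coding gene. The member had the nearest coding start for 18 of the 20. Another coding gene also had a start within 500 bp for 7. The counts for these 20 regions have no share over all pooled regions beside them, so they describe the members only.

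The layout of neighbouring genes was described beside the summits. Of the 33 members, 23 had an upstream coding neighbour on the opposite strand, called divergent here, and 9 of those had a pooled region. The other 10 followed a gene on the same strand, and 6 of those had one. Overlapping neighbours were not left out: the divergent neighbour of rpt-4, rpoa-49, overlapped it. By the same rule, 9227 protein-coding genes had a divergent neighbour and 10739 followed a gene on the same strand. Of these, 33.2% and 33.0% had a pooled region. An optimal region was present at 2 of the 23 and 1 of the 10 members, against 4.55% and 2.46% of all genes so placed. Within the second group, 5 members started at most 120 bp behind the preceding gene: pbs-3 (22 bp), rpn-6.2 (54 bp), pas-1 (106 bp), pbs-5 (110 bp) and rpn-10 (118 bp). Of these, 3 had a pooled region, against 37.6% of 1815 genes at most that far behind or overlapping the gene in front. Such close spacing on one strand is typical of operons in Caenorhabditis elegans, where downstream messages are trans-spliced; operon membership was not looked up. At these 5 genes nearly every summit of the 4 lists fell in an exon of the member or of the gene in front of it. The exception was 1 summit of pbs-3 in replicate 1, 20 bp upstream.

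Some members lay near an optimal region that the 500 bp rule left out. An intergenic optimal region had its summit 1144 bp upstream of pas-5, which was the nearest coding start, and had a pooled score of 138.6 (79.1 and 64.7 in the replicates). A region 1365 bp downstream of the pbs-2 start (172.8) was past the end of the gene and nearer to tba-2. Those found within 5000 bp of rpt-1 (292.1), rpn-8 (552.0 and 202.7) and rpn-13 (127.6), and the farther one upstream of pas-5 (130.1), also had another gene's start nearest. Of these, the strongest beside rpn-8 lay on the spliced leader RNA gene sls-2.4. Just outside the 500 bp limit for pooled regions were pas-1 (513 bp, score 43.3) and rpt-3 (567 bp, 47.4), and the farthest inside it was the second region of rpt-1 (411 bp).

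Genes that act with the proteasome were counted by the same rule. Of CDC-48 and its cofactors, which extract ubiquitin-marked proteins and pass them on, 3 of 14 had an optimal region (21.4%, 4.66 to 50.8, against 3.42% of all genes): cdc-48.1, ufd-2 and ubxn-3. The region of cdc-48.1, for the segregase ATPase itself, had a pooled score of 607.3 (329.4 and 277.4 in the replicates) and ranked 21 of 1604, above that of every proteasome subunit gene. ufd-2, for a chain elongation factor, scored 122.9, and ubxn-3 scored 112.1. Among 14 ubiquitin and proteasome-associated genes, 1 had an optimal region (7.14%, 0.181 to 33.9), uba-1, for the ubiquitin-activating enzyme (163.9, summit at -143 bp). The ubiquitin genes ubq-1 and ubq-2 and the proteasome gene regulator skn-1 had pooled relaxed regions but no optimal one.

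Of 24 ubiquitin conjugating enzyme genes, 3 had an optimal region (12.5%, 2.66 to 32.4, against 3.42% of all genes): ubc-6 (185.4), ubc-3 (148.2) and ubc-25 (130.1). The ubc-25 region scored 74.8 in replicate 1, and the nearest replicate 2 summit was 102 bp away with a score of 28.4. Cullins and Skp1-related genes had 0 of 26 (exact interval 0 to 13.2%). The COP9 signalosome, whose subunits are related to those of the lid, had 0 of 6, and eIF3, which shares the same PCI and MPN domains, had 2 of 11, eif-3.C (229.7) and eif-3.G (140.4). Pooled relaxed regions were present at 8 of 14 associated genes, 6 of 14 genes of CDC-48 and cofactors, 12 of 24 conjugating enzymes, 11 of 26 cullins and Skp1-related genes, 2 of 6 COP9 genes and 4 of 11 eIF3 genes, against 33.1% of all genes. With a summit of each replicate within 100 bp, the count was 4 of 14 associated genes, 5 of 14 genes of CDC-48 and cofactors, 7 of 24 conjugating enzymes, 1 of 26 cullins and Skp1-related genes, 0 of 6 COP9 genes and 4 of 11 eIF3 genes, against 14.8% of all genes. Differences between these lists and the proteasome genes were not tested.

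**Figure D4:**
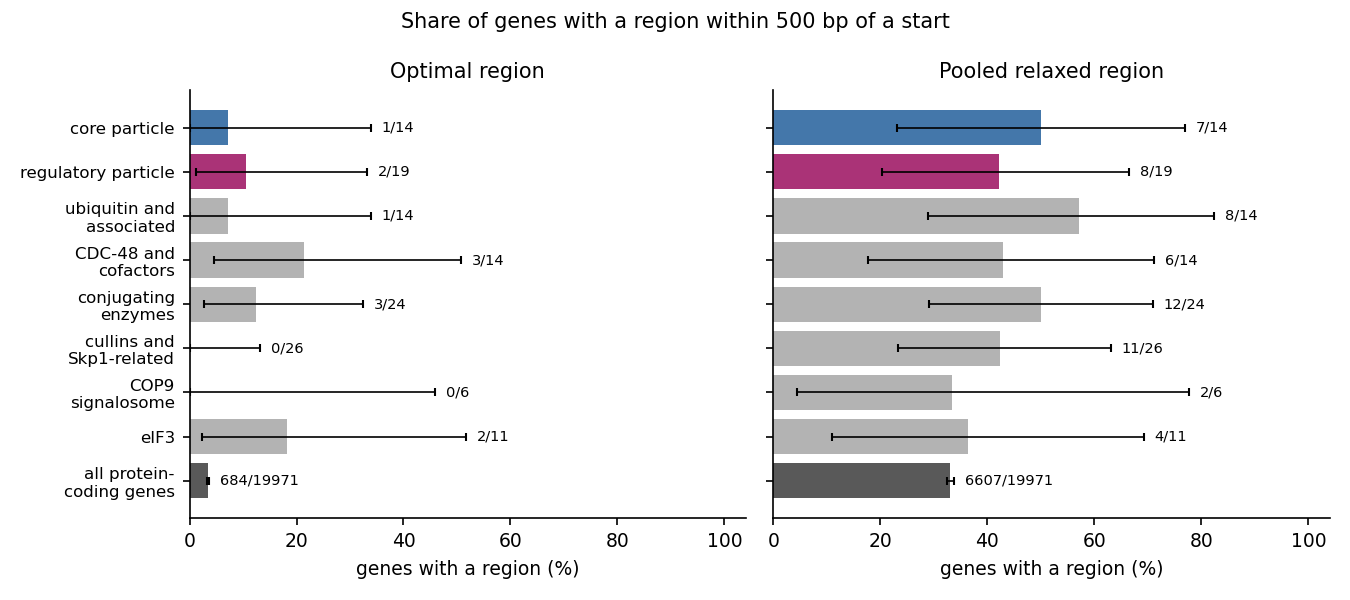
Share of genes with an optimal (left) or a pooled relaxed region (right) within 500 bp of a start, in percent of each list (bars), with exact 95% intervals (lines) and counts. The particles of the proteasome are coloured, related lists are light grey and all protein-coding genes dark grey; most intervals of the short lists include the share over all genes, 3.42% at the left and 33.1% at the right, and the list of CDC-48 and cofactors starts above it at the left.

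The genomic loci of the genes carried by the transgene were far from the members. The closest member to znf-782 was pbs-1, 641.3 kb away, and the closest to unc-119 was rpt-6, 1462 kb away. Most regions in all lists had the same width, so widths are not reported per gene. No library of another tagged protein was used here, and whether the 3 optimal regions at members are particular to this protein was not tested.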

How the data were processed

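The authors deposited 4 narrowPeak lists on ce11, the same assembly as WBcel235. Their README states that relaxed lists were derived from alignments of 1 replicate or of both, each with 1 control, and the optimal list from the 3 relaxed lists by an irreproducible discovery rate threshold. Not given in the sources used here: aligner, caller, versions, threshold. The authors' lists give per region a score, the signal value of the caller, the −log10 of the q value and a summit offset. Depth is unknown, so precision is limited to counts of genes, and intervals are exact (Clopper-Pearson) 95% intervals that cover counting error only.

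Starts, genes and sequence came from RefSeq WBcel235. Coordinates are 1-based. Python 3.11.15 with pandas 2.3.3, numpy 2.4.6 and scipy 1.17.1 was used. Assignment of summits to starts was tested on simulated data. All 1604 optimal regions were the highest-scoring regions of the pooled list, and the replicate lists shared no identical line. Both samples formed 1 group, with no test between conditions. Every member was accounted for by rule, and those with an optimal region were described in full. Members, lists and the motifs GAGAGA and GACGC were chosen with earlier results of these data known. For 8 alternatives the counts were repeated.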

Additional observations from a re-analysis of the deposited data

How the results depend on the processing

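The counts of members with an optimal region stayed at 3 with windows of 250 or 1000 bp, with the nearest protein-coding gene only, with coding starts, and with any overlap of region and window. The share over all genes moved meanwhile, to 2.05%, 4.93%, 2.87%, 3.25% and 4.06% in that order, from 3.42%. With the lower-scoring 50% of the list left out there were 2, rpn-11 and rpn-3, against 1.81% of all genes, and the core particle had 0. From 1 replicate's 1604 highest-scoring regions the count was 3 without replicate 1 (3.39% of all genes) and 2 without replicate 2 (3.32%), and that of the core particle ranged from 0 to 1, since pbs-1 ranked 1799 in replicate 1. The count for the regulatory particle stayed at 2 under all 8 alternatives.

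The count with a pooled relaxed region ranged from 11 (250 bp, or without the lower-scoring 50%) to 20 (1000 bp), against 20.9%, 19.4% and 48.4% of all genes. With 250 bp the regulatory particle had 5 of 19 and the core particle 6 of 14. With 1000 bp they had 12 and 8, which reversed the order of their shares. With any overlap they had 11 and 8, which made their shares nearly equal. From 1 replicate's relaxed list the members counted 16 without replicate 1 and 18 without replicate 2. The read depth is unknown, so a member without a region may lack reads or binding, which cannot be told apart. Weak regions of the relaxed lists include background. No paired analysis was possible because there was 1 group.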
